A study of Saccharomyces cerevisiae with 3 samples.

Results

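The stretch from T1455 to T1880 of the yeast 25S rRNA spans 426 nucleotides of the RDN25-2 gene (YNCL0021C) on chromosome XII. It was chosen by position, with earlier results of these data known. It follows C1391 to A1454 around helices h46 and h47 and makes up about the rest of domain III. It is 12.8% of the 3332 nucleotides of 25S outside C1391 to A1454. Here a nucleotide is named by its base in the rRNA gene and its position from the 5′ end of 25S. The secondary structure is not part of the pileups, so the domain name rests on the numbering. The strains were BY4741 yeast expressing Get4 with a C-terminal His-Tev-ProtA (HTP) tag from the genomic GET4 locus (2 libraries, Get4-HTP 1 and Get4-HTP 2) and untagged BY4741 (wild type, 1 library). All cultures grew exponentially in low uracil medium with 4-thiouracil and were irradiated at 365 nm. CRAC (crosslinking and analysis of cDNA) then recovered the RNA fragments that copurified with the tag, and the question was where Get4 touches the ribosome.

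Get4 works with Get5 and Sgt2 at the start of the GET pathway, which delivers tail-anchored membrane proteins to the ER. Domain III of the large subunit rRNA lies beneath the solvent face around the exit of the polypeptide tunnel, and ribosomal protein uL23 (Rpl25), a docking site for SRP and other factors, binds to it. In CRAC with 4-thiouracil, a crosslinked uridine is often read as C, and such a T-C substitution marks the contact at single-nucleotide resolution. Only reads with 1 such substitution were kept, so the substitutions at the T positions count reads, whereas hits count every nucleotide that a read covers.

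The libraries held 614992 mapped reads in Get4-HTP 1, 933943 in Get4-HTP 2 and 107659 in wild type. Sense reads on 25S were 3.13% in Get4-HTP 1, 2.29% in Get4-HTP 2 and 7.96% in wild type. Wild type was amplified with more PCR cycles than the Get4-HTP libraries, so strain and amplification cannot be told apart. By the headers, wild type was in the run of Get4-HTP 1, and Get4-HTP 2 in a different one. With 1 wild type library no test between the strains was possible and no p values are given. Intervals are 95% intervals and cover counting error only. Where a pair of ratios to wild type is given, the first is that of Get4-HTP 1 and the other that of Get4-HTP 2. The base of all 25S shares is the 3332 nucleotides of 25S outside C1391 to A1454, so that the h46/h47 signal does not set them. Means, medians, ranks and counts over 25S, of nucleotides, T positions or blocks, leave out C1391 to A1454 as well.

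The substituted uridines on which the results turn are shown first. The following 4 T positions were among the 8 with the most substitutions of the region in every library. Each is shown 5′ to 3′ in the DNA letters of the pileups with 15 nucleotides on either side, and the capital marks the substituted T.
T1484C: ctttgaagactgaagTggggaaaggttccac
T1724C: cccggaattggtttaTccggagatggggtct
T1764C: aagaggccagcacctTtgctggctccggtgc
T1815C: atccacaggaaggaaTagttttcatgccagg
T1815C stands for the T of nucleotide T1815 read as C. The T1484C site is followed by 4 G, the T1764C site is the second of a run of 3 T, and the T1815C site is preceded by 2 A.

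Nucleotides T1455 to T1880 held a smaller share of the substitutions of 25S than of its T positions in each of the 3 libraries. They received 886 substitutions in Get4-HTP 1, 430 in Get4-HTP 2 and 514 in wild type. As a share of 25S substitutions these were 6.41% (Wilson interval 6.01% to 6.83%) in Get4-HTP 1, 5.72% (5.22% to 6.27%) in Get4-HTP 2 and 6.34% (5.83% to 6.89%) in wild type. The region holds 106 of the T positions of 25S, which is 12.4% of them, so in each library it had about 50% of the substitutions that its T content alone would give. The ratio to wild type was 1.01 (exact conditional interval 0.906 to 1.13) for Get4-HTP 1 and 0.903 (0.792 to 1.03) for Get4-HTP 2, and the mean was 0.957 ± 0.0768 (SD, n = 2). Both intervals include 1. The tagged strain and wild type thus did not differ in this share beyond counting error on this base. With A2991 to T3396 also left out of the base, the mean was 1.02 ± 0.418 (SD, n = 2). The Get4-HTP libraries then lay much further apart, so the closeness of each to wild type depends on the base. The intervals allow a share of up to 1.13 times and down to 0.792 times that of wild type.

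The picture was another per 1000000 mapped reads, where the region had 1441 substitutions in Get4-HTP 1, 460.4 in Get4-HTP 2 and 4774 in wild type. The ratios to wild type were 0.302 (interval 0.270 to 0.337) and 0.0964 (0.0846 to 0.110). All of 25S also took a smaller part of the mapped reads in Get4-HTP, as given above, and tRNA reads are included in the denominator. The region was therefore lower in Get4-HTP per mapped read and close to wild type as a share of 25S on the base used here.

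**Figure D1:**
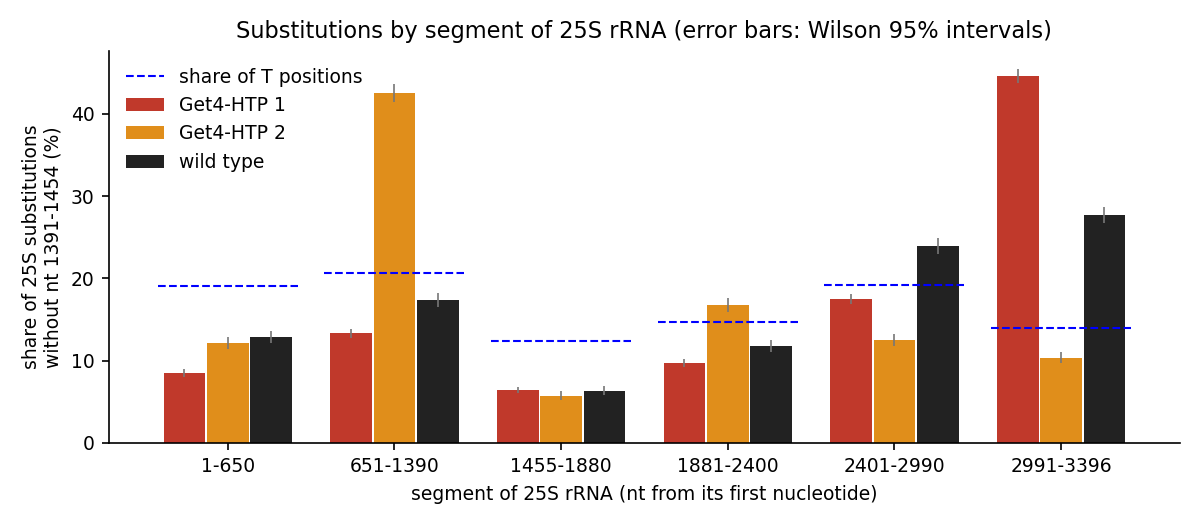
Share of 25S substitutions (%, nucleotides C1391 to A1454 left out) in 6 segments of 25S for Get4-HTP 1 (red), Get4-HTP 2 (orange) and wild type (black), with Wilson 95% intervals as error bars and the share of T positions as dashed lines. The 3 bars of nucleotides T1455 to T1880 lie between 5.72% and 6.41%, all below the 12.4% of T positions.

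The share of the region was similar in the 3 libraries, in contrast to other segments. Nucleotides A2991 to T3396 held 44.6% of 25S substitutions in Get4-HTP 1, 10.4% in Get4-HTP 2 and 27.7% in wild type. Nucleotides G651 to A1390, on the other side of h46/h47, held 13.3% in Get4-HTP 1, 42.5% in Get4-HTP 2 and 17.4% in wild type. The last nucleotides of this segment, T1341 to A1390, border on C1391 to A1454. They held 208 of its 1841 substitutions in Get4-HTP 1, 1024 of 3195 in Get4-HTP 2 and 62 of 1408 in wild type. The contrast of this segment without them was not tested. In the neighboring segment from A1881 to G2400 the shares were 9.70% in Get4-HTP 1, 16.7% in Get4-HTP 2 and 11.7% in wild type. The share of the region thus spanned fewer percentage points between libraries than that of any other segment. Relative to the 25S mean per T position, the region reached 0.518 in Get4-HTP 1, 0.462 in Get4-HTP 2 and 0.512 in wild type. In Get4-HTP 2 and wild type this was the lowest of the 6 segments. In Get4-HTP 1 nucleotides 1 to 650 were lower, at 0.446. As shares of 1 library sum to 100%, the large segments of a library lower all others in it.

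The region lacked the strongest sites of 25S, while its median T position was like that of the rest. The median T position of the region had 5 substitutions in Get4-HTP 1, 3 in Get4-HTP 2 and 3 in wild type, and the median of the other 750 T positions of 25S was the same in each library. The highest T position of the region had 110 in Get4-HTP 1, 49 in Get4-HTP 2 and 47 in wild type. The highest one elsewhere, outside C1391 to A1454, had 1252 in Get4-HTP 1 (T3198), 674 in Get4-HTP 2 (T942) and 519 in wild type (T942). C1391 to A1454 held 5444 substitutions in Get4-HTP 1, 13895 in Get4-HTP 2 and 459 in wild type. Its T positions are not ranked here. Of the 50 other T positions of 25S with the most substitutions, 3 were in the region in Get4-HTP 1, 1 in Get4-HTP 2 and 2 in wild type. For hits the mean was lower than the median in each library relative to 25S, but the median was also below that of 25S in Get4-HTP 2 and, by less, in wild type. The median nucleotide of the region had 64 hits in Get4-HTP 1, against 56 over 25S, 27 in Get4-HTP 2, against 37, and 36 in wild type, against 39. The mean relative to that of 25S was 0.590 in Get4-HTP 1, 0.660 in Get4-HTP 2 and 0.527 in wild type.

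In Get4-HTP 2 a large share of the hits of the region lay on its first nucleotides, which border on h46/h47. Nucleotides T1455 to T1494 held 14.2% of the hits of the region in Get4-HTP 1, 44.9% in Get4-HTP 2 and 19.2% in wild type, so Get4-HTP 1 was below wild type in this. The region had 32785 hits in Get4-HTP 1, 22038 in Get4-HTP 2 and 16824 in wild type, and its share of 25S hits was 7.54% in Get4-HTP 1, 8.44% in Get4-HTP 2 and 6.74% in wild type. The ratios to wild type of 1.12 and 1.25 gave a mean of 1.19 ± 0.0943 (SD, n = 2). The region had 53310 hits per 1000000 mapped reads in Get4-HTP 1, 23597 in Get4-HTP 2 and 156271 in wild type, with ratios of 0.341 and 0.151. At nucleotide T1455 there were 502 hits in Get4-HTP 1, 1435 in Get4-HTP 2 and 66 in wild type. At nucleotide G1480 there were 84 in Get4-HTP 1, 50 in Get4-HTP 2 and 83 in wild type. Hits thus fell steeply over 25 nucleotides in both Get4-HTP libraries but were higher at G1480 than at T1455 in wild type.

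The first 30 nucleotides are shown because these hits lie on them, with every T in capitals.
T1455 to T1484: TaTTcaaaTgagaacTTTgaagacTgaagT
The hits at the border came with few substitutions of their own. The 3 T positions from T1455 to T1458 had 10 substitutions in Get4-HTP 1, 12 in Get4-HTP 2 and 10 in wild type. Over nucleotides T1455 to T1494 there were 58.3 hits per substitution in Get4-HTP 1, 165 in Get4-HTP 2 and 35.6 in wild type. Over the remaining 386 nucleotides there were 34.9 in Get4-HTP 1, 32.8 in Get4-HTP 2 and 32.1 in wild type, so the libraries were alike there. Since each read carries 1 substitution, the surplus hits at the border belonged to reads substituted outside these nucleotides. Nucleotide T1430 in h46/h47 had 5293 hits in Get4-HTP 1, 12533 in Get4-HTP 2 and 410 in wild type, and nucleotide G1450 still had 1356 in Get4-HTP 1, 2517 in Get4-HTP 2 and 113 in wild type.

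Without nucleotides T1455 to T1494 the region held 6.54% of 25S hits in Get4-HTP 1, 4.83% in Get4-HTP 2 and 5.52% in wild type, with ratios of 1.19 and 0.876 and a mean of 1.03 ± 0.219 (SD, n = 2). Get4-HTP 2 thus passed to the other side of wild type without these nucleotides, and Get4-HTP 1 stayed above it. The share of substitutions without them was 5.87% (Wilson interval 5.48% to 6.27%) in Get4-HTP 1, 4.96% (4.49% to 5.48%) in Get4-HTP 2 and 5.28% (4.81% to 5.79%) in wild type.

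**Figure D2:**
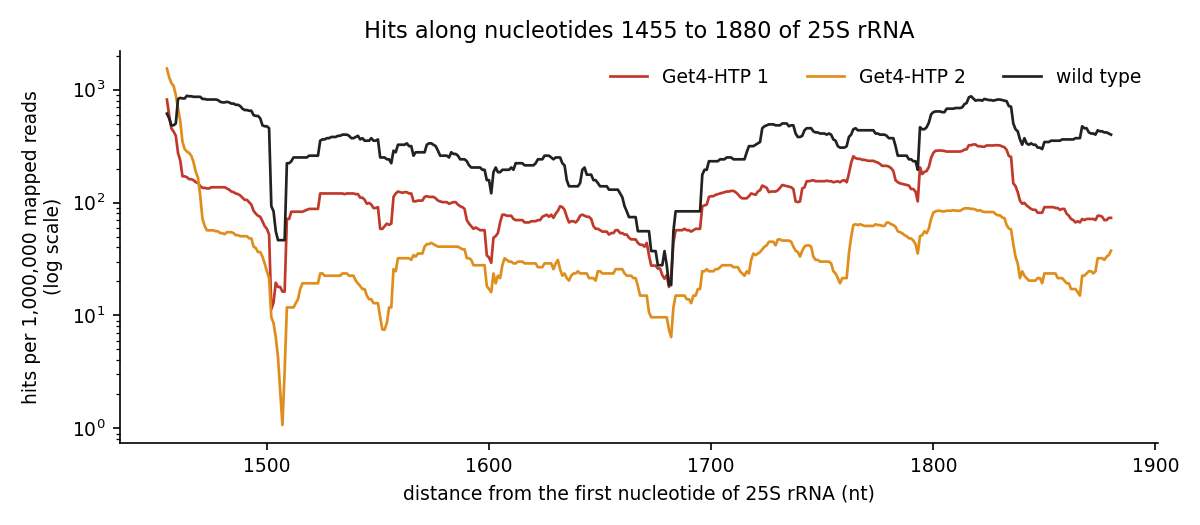
Hits per 1000000 mapped reads (log axis) at each nucleotide from T1455 to T1880 in Get4-HTP 1 (red), Get4-HTP 2 (orange) and wild type (black). The curves of Get4-HTP fall from nucleotide T1455 to G1480, after which the 3 curves share a dip at A1504 to C1508, a low stretch before G1700 and a rise around T1815.

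Along the region the 3 profiles rose and fell together. Over nucleotides T1495 to T1880 Spearman's rho of hits was 0.749 between Get4-HTP 1 and Get4-HTP 2, 0.788 between Get4-HTP 1 and wild type and 0.648 between Get4-HTP 2 and wild type. Neighboring nucleotides share most of their reads and all libraries share 1 sequence, so these values are descriptions. Runs of at least 15 nucleotides above 2 times the 25S median were found around nucleotide T1815 in each library. They extended from G1796 to A1835 in Get4-HTP 1 (up to 201 hits), from A1800 to C1827 in Get4-HTP 2 (up to 83 hits) and from A1814 to G1833 in wild type (up to 94 hits). Get4-HTP 1 had a further run from T1763 to T1782, with up to 158 hits. At the start of the region the run was from T1455 to T1470 in Get4-HTP 2 and from A1460 to G1487 in wild type, where it reached 95 hits at nucleotide G1464.

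A dip was found at the same place in each library. From nucleotide A1504 to C1508 there were 10 to 12 hits in Get4-HTP 1, 1 to 6 in Get4-HTP 2 and 5 to 6 in wild type, at most 25% of the median of the region. At nucleotide C1499, before the dip, there were hits of 38 in Get4-HTP 1, 27 in Get4-HTP 2 and 51 in wild type. At nucleotide G1513, after the dip, there were 51 in Get4-HTP 1, 12 in Get4-HTP 2 and 27 in wild type. The sequence around the dip is shown with every T in capitals, and it has no T from A1504 to C1508.
A1491 to G1520: aggTTccacgTcaacagcagTTggacgTgg
The dip was named after the profile had been seen. Few reads of any library crossed these nucleotides, so the hits of the first 50 nucleotides and those of the rest came largely from different reads.

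Of the 106 T positions, 71 had at least 1 substitution in every library and 6 had none in any. T positions without a substitution numbered 11 in Get4-HTP 1, 25 in Get4-HTP 2 and 20 in wild type. The 8 highest T positions held 38.7% of the substitutions of the region in Get4-HTP 1, 34.9% in Get4-HTP 2 and 33.1% in wild type. Across T positions, Spearman's rho was 0.532 between the Get4-HTP libraries, 0.617 between Get4-HTP 1 and wild type and 0.494 between Get4-HTP 2 and wild type. The Get4-HTP libraries were thus no more alike in this region than Get4-HTP 1 and wild type, which were in 1 run.

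Nucleotide T1815 was the most substituted T of the region in each library. T1815C was read 110 times in Get4-HTP 1, 49 times in Get4-HTP 2 and 47 times in wild type, and its share of the substitutions of the region was 12.4% in Get4-HTP 1, 11.4% in Get4-HTP 2 and 9.14% in wild type. Of the reads over this nucleotide, 60.4% of 182 were substituted in Get4-HTP 1 (Wilson interval 53.2% to 67.3%), 59.0% of 83 in Get4-HTP 2 (48.3% to 69.0%) and 57.3% of 82 in wild type (46.5% to 67.5%). The 3 intervals overlapped almost fully. Here and below, such shares are of retained reads, each with 1 T-C change, so they are not rates of crosslinking. Among T positions of 25S outside C1391 to A1454, it ranked 20 in Get4-HTP 1, 18 in Get4-HTP 2 and 28 in wild type by number of substitutions. With 1 substitution added to each count, the ratio of its share of 25S substitutions to wild type was 1.36 (interval of the raw counts 0.967 to 1.98) and 1.12 (0.738 to 1.72), so neither library was above wild type beyond counting error. Per 1000000 mapped reads it had 179 substitutions in Get4-HTP 1, 52.5 in Get4-HTP 2 and 437 in wild type.

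By substitutions summed over the libraries, the T next in order lay at T1484 in the 5′ part and at T1764 and T1724 in the 3′ part. Within single libraries, T1463C came before T1764C and T1724C in wild type (24 substitutions), and T1765C and T1569C (27) came before T1724C in Get4-HTP 1. T1484C was read 44 times in Get4-HTP 1 (57.1% of the reads over it), 20 times in Get4-HTP 2 (39.2%) and 30 times in wild type (37.0%). The interval of Get4-HTP 1 (46% to 67.6%) overlapped that of Get4-HTP 2 (27.0% to 52.9%) and of wild type (27.3% to 47.9%). T1764C was read 59 times in Get4-HTP 1, 14 times in Get4-HTP 2 and 16 times in wild type. Its share of 25S substitutions was higher than in wild type in Get4-HTP 1 (interval of the ratio 1.23 to 4.03) but not in Get4-HTP 2 (0.427 to 2.06). The T after it, T1765C, had 40 in Get4-HTP 1, 6 in Get4-HTP 2 and 12 in wild type, and the T before it, T1763C, had 16 in Get4-HTP 1, 11 in Get4-HTP 2 and 10 in wild type.

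At T1724 the substituted share set Get4-HTP 2 apart. T1724C was read 24 times in Get4-HTP 1, 25 times in Get4-HTP 2 and 13 times in wild type. The share of the reads over it was 28.2% (19.8% to 38.6%) in Get4-HTP 1, 65.8% (49.9% to 78.8%) in Get4-HTP 2 and 25.5% (15.6% to 38.9%) in wild type. The interval of Get4-HTP 2 did not overlap the others, whereas Get4-HTP 1 lay close to wild type. The Get4-HTP libraries thus differed from each other here. T1724C was not alone in this. The interval of Get4-HTP 2 also lay above both others at T1540C (27.3% to 68.3%) and T1783C (12.5% to 33.3%). At T1463C (0.771% to 4.14%) it lay below both. How many T positions did so was not counted. In Get4-HTP 2, T1783C ranked 5 in the region by number of substitutions. It had 3 substitutions in Get4-HTP 1, 12 in Get4-HTP 2 and 0 in wild type, where 34 reads covered it. With 15 substitutions in all it was below the minimum for a comparison.

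Other T positions were among the 8 highest of 1 library only. T1530C had 20 in Get4-HTP 1, 5 in Get4-HTP 2 and 7 in wild type, T1549C had 19 in Get4-HTP 1, 1 in Get4-HTP 2 and 9 in wild type, and T1831C had 19 in Get4-HTP 1, 1 in Get4-HTP 2 and 10 in wild type. T1732C had 15 in Get4-HTP 1, 6 in Get4-HTP 2 and 16 in wild type. T1600C, T1777C, T1818C, T1862C and T1873C had between 8 and 19 substitutions in Get4-HTP 1, between 5 and 9 in Get4-HTP 2 and between 4 and 12 in wild type. In Get4-HTP 2, T1549C was found in 1 of only 12 reads over it (interval 1.49% to 35.4%). T1831C was found there in 1 of 69 reads (0.256% to 7.76%). T1732C was as frequent as T1764C in wild type only.

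**Figure D3:**
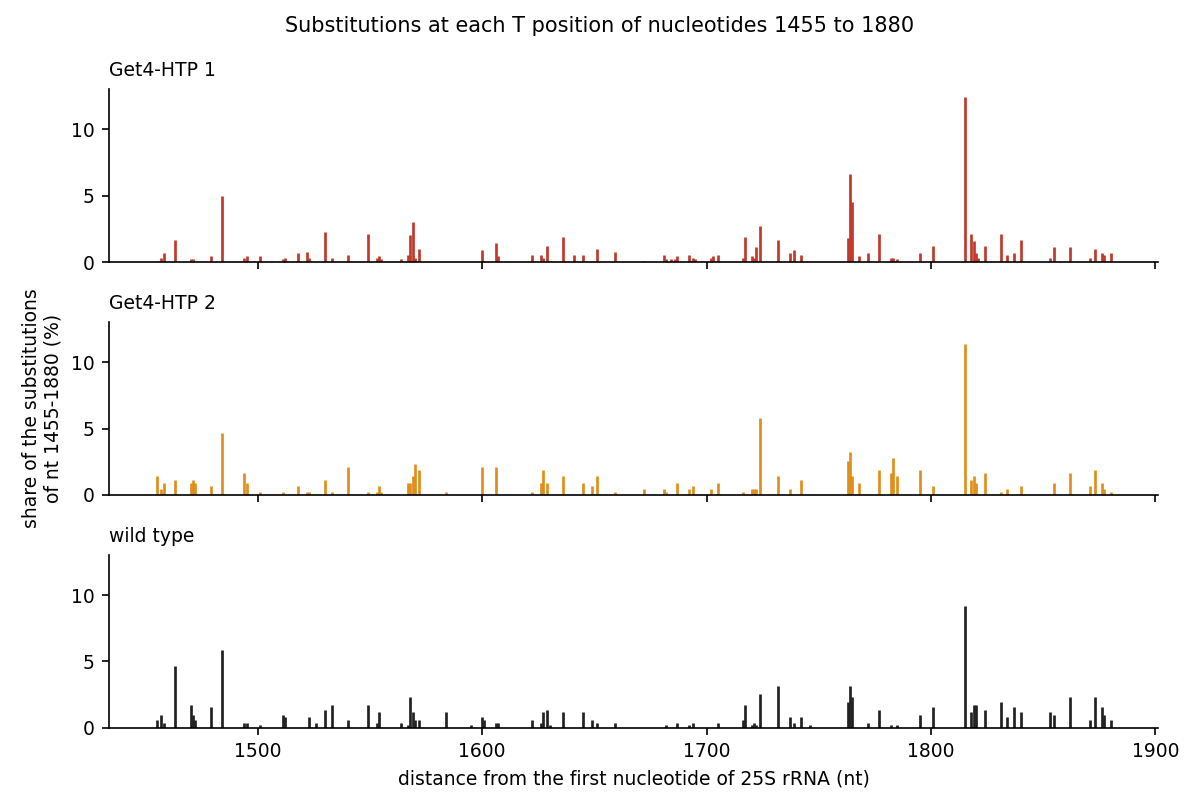
Substitutions at each T position, as a share (%) of all substitutions of nucleotides T1455 to T1880, in Get4-HTP 1 (top), Get4-HTP 2 (middle) and wild type (bottom). Nucleotide T1815 has the tallest line in each panel, with 12.4% in Get4-HTP 1, 11.4% in Get4-HTP 2 and 9.14% in wild type, and T1484C, T1724C and T1764C recur in all panels.

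T positions with at least 20 substitutions summed over the libraries were compared with wild type by their share of 25S substitutions, with 1 substitution added to each count. In the region 27 T positions reached this number. At least 2 times higher in both Get4-HTP libraries was 1 of them, against 24 of all 304 such T positions of 25S (7.89%). At most 0.5 of wild type in both was also 1, against 22 of 304 (7.24%). The median ratios over the 27 positions were 1.06 and 0.755, and over all 304 they were 0.996 and 0.913. The region thus had no more positions called in either direction than 25S as a whole. On the scale of mapped reads, 22 of 27 lay at or under 0.5 of wild type in each Get4-HTP library, as did 224 of 304 (73.7%), and none of the 27 was above wild type in either library.

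The higher and the lower position are shown with the T in capitals, as they are the only ones called.
T1606C: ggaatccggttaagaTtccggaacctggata
T1463C: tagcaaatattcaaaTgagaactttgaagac
T1606C had 13 substitutions in Get4-HTP 1, 9 in Get4-HTP 2 and 2 in wild type, with ratios of 2.74 and 3.6. With 2 wild type reads the interval of the ratio of raw counts was wide, from 0.863 to 34.8 for Get4-HTP 1, which includes 1, and from 1.005 to 46.2 for Get4-HTP 2, which barely excludes it. Per 1000000 mapped reads T1606C was lower than in wild type, with ratios of 0.817 and 0.384. T1463C had 15 in Get4-HTP 1, 5 in Get4-HTP 2 and 24 in wild type, with ratios of 0.375 and 0.259. Its intervals, 0.179 to 0.728 and 0.0670 to 0.601, lay below 1. This T is close to h46/h47, where many reads of Get4-HTP carried their single substitution elsewhere, and its part in the value was not tested. Of the reads over this T, 14.3% of 105 were substituted in Get4-HTP 1, 1.80% of 278 in Get4-HTP 2 and 26.7% of 90 in wild type.

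The region was also divided into 9 blocks of 50 nucleotides, of which the last had 26. By share of 25S hits, 0 of the 9 blocks were at least 2 times higher in both Get4-HTP libraries, against 5 of 68 over 25S (7.35%), and 0 reached 0.5 of wild type or less in both, against 3 of 68 (4.41%). On the scale of mapped reads 7 of 9 lay at or under 0.5 of wild type in each Get4-HTP library, and so did 56 of 68 (82.4%). Block T1455 to A1504 had ratios of 0.783 and 2.65 by hits, but of 0.549 (interval 0.406 to 0.742) and 0.746 (0.535 to 1.03) by substitutions. The 2-fold value of Get4-HTP 2 was thus present in hits and absent in substitutions. Block T1855 to T1880, at the 3′ end, was below wild type by both measures, with ratios of 0.621 and 0.505 for hits and of 0.599 (0.394 to 0.911) and 0.652 (0.396 to 1.05) for substitutions.

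Blocks C1755 to A1804 and C1805 to C1854 held the largest numbers of substitutions in Get4-HTP 1 and Get4-HTP 2. The first had 169 in Get4-HTP 1, 79 in Get4-HTP 2 and 62 in wild type, with ratios of 1.60 (1.19 to 2.18) and 1.37 (0.973 to 1.95) to wild type. The second had 211 in Get4-HTP 1, 77 in Get4-HTP 2 and 112 in wild type, with ratios of 1.11 (0.875 to 1.4) and 0.742 (0.548 to 1.0). Get4-HTP lay above wild type in block C1755 to A1804 by less than 2-fold in both libraries, and on either side of it in block C1805 to C1854.

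**Figure D4:**
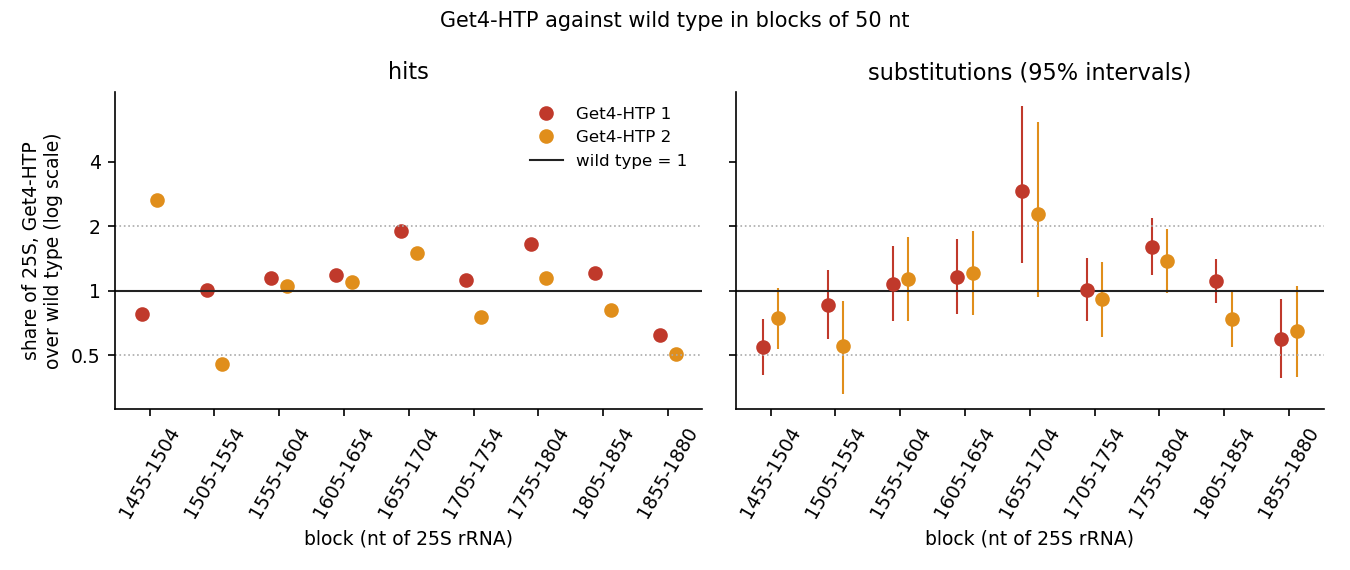
Share of 25S hits (left) and of 25S substitutions (right, with exact conditional 95% intervals) in each block as a ratio to wild type, which is the line at 1, on a log axis. Red points are Get4-HTP 1, orange points Get4-HTP 2, and dotted lines mark ratios of 0.5 and 2. The block from T1455 to A1504 is at 2.65 by hits in Get4-HTP 2 and at 0.746 by substitutions.

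The block of the region with the fewest substitutions was G1655 to A1704, although it has 15 T positions, the most of the 9 blocks. The block also had few hits, with a mean per nucleotide of 34.7 in Get4-HTP 1, 16.5 in Get4-HTP 2 and 10.5 in wild type. The part of coverage in its few substitutions was not tested. It is shown with every T in capitals because the count of T and the count of substitutions differ most here.
G1655 to A1704: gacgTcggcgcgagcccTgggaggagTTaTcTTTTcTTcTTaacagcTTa
It had 40 substitutions in Get4-HTP 1, 17 in Get4-HTP 2 and 8 in wild type, which is per T position 2.67 in Get4-HTP 1, 1.13 in Get4-HTP 2 and 0.533 in wild type. Over all of 25S there were per T position 16.1 in Get4-HTP 1, 8.78 in Get4-HTP 2 and 9.47 in wild type. Of the 6 T positions without a substitution in any library, 3 were in this block, at nucleotides T1688, T1689 and T1691. Each was covered by 34 to 36 reads in Get4-HTP 1, 12 to 14 in Get4-HTP 2 and 9 in wild type. Relative to wild type, the share of 25S substitutions was 2.93 in Get4-HTP 1 (interval 1.35 to 7.26) and 2.29 in Get4-HTP 2 (0.938 to 6.14), both on the basis of 8 wild type reads. By hits the ratios were 1.90 and 1.5, and per 1000000 mapped reads the hits were 0.578 and 0.181 of wild type.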

How the data were processed

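Before deposit, the authors removed adapters (Flexbar), merged reads of 1 UMI and mapped the rest with Bowtie2 (2.3.4.2 in the submitters' notes). Reads with more than 1 mismatch were dropped, and of the others those whose mismatch was a T-C change were retained. The file headers name a folder of Bowtie 1 output. The deposited values are counts made by pyPileup, per nucleotide and not normalized: hits, substitutions and deletions (0 deletions were listed). The genome build is not given in the sources used here, and how reads were divided between near-identical rDNA copies is not stated. Reads without a T-C change are absent, which raises nucleotides near a frequently substituted T, and this could not be undone.

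Counts of RDN25-2 were ordered by position. Values were expressed per 1000000 mapped reads of the header and as shares of 25S without nucleotides 1391 to 1454. Ratios are Get4-HTP over wild type for each library. Shares have Wilson 95% intervals, and ratios of counts have exact conditional 95% intervals (no pseudocount), while the ratios used for calls of T positions had 1 substitution added. T positions needed at least 20 substitutions over the 3 libraries. The T positions named were those among the 8 highest of any library (22 with ties), the 3 with the highest substituted share at 50 or more hits in each library, and those called. A count of 0 allows up to 3 reads, which is 4.88 per 1000000 mapped reads in Get4-HTP 1, 3.21 in Get4-HTP 2 and 27.9 in wild type. The wild type library was thus the least precise per mapped read. The region, the lists and the rules were chosen with earlier results of these data known. The code was tested on simulated data. Alternatives concerned the denominator, the borders of the region, the filter, the pseudocount, the fold, the block width and single libraries. Python 3.11.15, numpy 2.4.6, scipy 1.17.1, pandas 2.3.3 and matplotlib 3.10.9 were used.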

Additional observations from a re-analysis of the deposited data

How the results depend on the processing

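The mean share of 25S hits relative to wild type (1.19) fell to 0.641 with all of 25S as the denominator, which lets the h46/h47 stretch in and turns the direction. It was 1.04 with all RDN37 segments as the denominator and 1.03 without nucleotides T1455 to T1494. It was 1.28 without nucleotides T1341 to A1454, an alternative chosen after seeing the data because Get4-HTP 2 had 13.6% of its 25S substitutions from T1341 to A1390. The share of 25S substitutions (0.957) was 0.551 with all of 25S and 0.812 with all RDN37 segments as the denominator. In its other settings, such as 1.03 without nucleotides T1341 to A1454, the mean lay within the SD between libraries, on either side of 1. The mean of 1.02 without nucleotides A2991 to T3396 hides a wide spread, with an SD of 0.418 against 0.0768 in the main setting. Per 1000000 mapped reads the ratios for hits (0.246) and substitutions (0.199) were 0.746 and 0.585 when rRNA sense reads replaced mapped reads. With each Get4-HTP library alone, the ratios (Get4-HTP 1, then Get4-HTP 2) were 1.12 and 1.25 for the share of hits, 1.01 and 0.903 for the share of substitutions, 0.341 and 0.151 for hits per 1000000 mapped reads, and 0.302 and 0.0964 for substitutions per 1000000 mapped reads.

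T positions higher in both libraries numbered 7 of 86 with at least 5 substitutions (11.2% over 25S), 0 of 5 with at least 50 (7.21%) and 0 per 1000000 mapped reads (0.329%). With 1 Get4-HTP library alone they numbered 3 to 4 of 27 (13.2% over 25S for Get4-HTP 1, 23.7% for Get4-HTP 2). T positions lower in both numbered 9 with at least 5 substitutions (9.55%), 0 with at least 50 (5.41%), 22 per 1000000 mapped reads (73.7%) and 3 at a fold of 1.5 (16.1%), and 3 to 7 with 1 Get4-HTP library alone (18.1% and 28.0%). The looser limit tests more positions of few reads. Blocks higher in both numbered 1 of 9 by substitutions (G1655 to A1704; 7.35% over 25S), and 0 to 1 with 1 Get4-HTP library alone (7.35% and 20.6%). Blocks lower in both numbered 7 per 1000000 mapped reads (82.4%) and 1 at a fold of 1.5 (13.2%), and 0 to 1 with 1 Get4-HTP library alone (7.35% and 14.7%). No paired analysis was possible because wild type has 1 library. The depths of wild type, with 514 substitutions over 106 T positions, and of Get4-HTP 2, with 430, limit single sites to large ratios.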

Other observations

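The run of 4 T from nucleotide T1567 to T1570 was substituted at different places in the 3 libraries. From 5′ to 3′ the substitutions were 5, 18, 27 and 3 in Get4-HTP 1. In Get4-HTP 2 they were 4, 4, 6 and 10, and in wild type 1, 12, 6 and 3. The run was covered by 63 to 64 reads in Get4-HTP 1, 31 to 33 in Get4-HTP 2 and 30 in wild type. The most substituted T of the run was thus T1569C in Get4-HTP 1, T1570C in Get4-HTP 2 and T1568C in wild type, on small counts in all but Get4-HTP 1.

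T followed by 4 G (TGGGG, read along the rRNA only) occurs 3 times in the region and 6 times in the rest of 25S outside C1391 to A1454, and this was looked for after the values had been seen. The 3 T of the region, T1484C, T1540C and T1732C, were each among the 8 highest of at least 1 library. They were substituted in 57.1%, 6.85% and 17.0% of reads in Get4-HTP 1, in 39.2%, 47.4% and 14.0% in Get4-HTP 2, while wild type had 37.0%, 7.32% and 29.6%. At the 6 others the median substituted share came to 7.37% in Get4-HTP 1, 9.79% in Get4-HTP 2 and 9.20% in wild type, with up to 39.1% in Get4-HTP 2. T1540C was low in Get4-HTP 1 and wild type and high in Get4-HTP 2, where it rests on 9 of 19 reads.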
